A study of Mus musculus with 2 samples.

Results

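The genes described here are 10 chemokines of the palatal gingiva, taken by symbol from the 32285 genes counted in each library. They are *Ccl2*, *Ccl7*, *Ccl3*, *Ccl4* and *Ccl5*, which attract monocytes and effector T cells, *Ccl20*, which attracts cells carrying the receptor Ccr6, and the tissue chemokines *Ccl27a*, *Cxcl12*, *Cxcl14* and *Cxcl16*. Each was followed by cell class and library in cells with at least 800 detected genes, and all 10 had UMIs (unique molecular identifiers, which count captured RNA molecules) in both libraries. The mice were female C57Bl6/J animals of 8 to 12 weeks, for which the labels name no mutant allele. CpG ODN, a synthetic ligand of TLR9, or *P. gingivalis* LPS, a ligand of TLR2/4, was placed on the palate (3 µl at 1 µg/ml) and kept under an oral appliance for 1 h, and the palatal gingiva was taken on day 4. Cells released by collagenase II and by trypsin were joined, and equal cell numbers of 4 mice were pooled into 1 library for each ligand. The comparison asks how the chemokine sources of the oral barrier differ between the 2 ligands. With 1 library for each there is no test, the spread between mice is not seen, and an untreated library was not analysed here, so no value below says whether a gene was changed by either ligand.

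Chemokines are small secreted proteins that bind G protein-coupled receptors on leukocytes and guide their movement. Inflammatory members are switched on in macrophages, fibroblasts and epithelium after sensing of microbes and bring in monocytes and T cells, whereas homeostatic members are made continuously by stroma and epithelium and hold resident or recirculating cells in place. In oral and skin epithelium, *Ccl20* and *Cxcl14* are known epithelial products, and *Cxcl12* is known from fibroblasts and vessels.

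In the GRCm38 assembly with the GENCODE M21 annotation, 6 of the 10 genes lie on chromosome 11. *Ccl2* (chr11:82035571-82037453, plus strand) and *Ccl7* (chr11:82045712-82047525, plus strand) are 8.26 kb apart, and no protein-coding gene is annotated between them. *Ccl3* (chr11:83647844-83649355, minus strand) and *Ccl4* (chr11:83662584-83664683, plus strand) are 13.2 kb apart, again with 0 coding genes between. *Ccl5* (chr11:83525778-83530518, minus strand) and *Cxcl16* (chr11:70453983-70459984, minus strand) are on the same chromosome. The others are *Ccl20* (chr1:83116766-83119167, plus strand), *Ccl27a* (chr4:41769467-41774247, minus strand), *Cxcl12* (chr6:117168535-117181367, plus strand) and *Cxcl14* (chr13:56288643-56296551, minus strand). *Ccl2*, *Ccl27a* and *Cxcl16* overlap a gene on the other strand (*Gm17268*, *Il11ra1* and *Zmynd15*). The symbol *Ccl27a* is carried by 3 identifiers, of which only ENSMUSG00000073888 had UMIs, so its counts are uncertain. The sequences of the 3 were not compared here.

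Upstream sequence from RefSeq (GRCm38.p6) matched 5 of the 10 genes, *Ccl3*, *Ccl20*, *Ccl27a*, *Cxcl12* and *Cxcl14*. The 250 bases before the transcription start are shown for 4 of them, 1 for each kind of source described below: keratinocytes in which few cells held many UMIs (*Ccl20*), keratinocytes in which most cells held a few (*Cxcl14*), myeloid cells (*Ccl3*) and stroma (*Cxcl12*). Each runs 5′ to 3′ on the strand of its gene, and capitals mark matches on either strand to an NF-kB type motif (3 G, any 5 bases and 2 C), the AP-1 motif TGANTCA, the element TATAA of many core promoters or the GC box motif GGGCGG.

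*Ccl20*, chr1:83116516-83116765, plus strand: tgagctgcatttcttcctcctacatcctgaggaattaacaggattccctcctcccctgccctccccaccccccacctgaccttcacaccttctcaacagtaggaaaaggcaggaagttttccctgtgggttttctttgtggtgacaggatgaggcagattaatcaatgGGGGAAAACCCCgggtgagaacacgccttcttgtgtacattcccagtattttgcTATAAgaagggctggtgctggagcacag

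*Cxcl14*, chr13:56296552-56296801, minus strand: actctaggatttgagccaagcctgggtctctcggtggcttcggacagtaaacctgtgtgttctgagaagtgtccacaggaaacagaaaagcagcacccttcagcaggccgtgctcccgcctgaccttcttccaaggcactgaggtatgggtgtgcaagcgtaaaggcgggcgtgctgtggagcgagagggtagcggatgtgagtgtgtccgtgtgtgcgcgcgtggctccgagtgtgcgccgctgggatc

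*Ccl3*, chr11:83649379-83649628, minus strand: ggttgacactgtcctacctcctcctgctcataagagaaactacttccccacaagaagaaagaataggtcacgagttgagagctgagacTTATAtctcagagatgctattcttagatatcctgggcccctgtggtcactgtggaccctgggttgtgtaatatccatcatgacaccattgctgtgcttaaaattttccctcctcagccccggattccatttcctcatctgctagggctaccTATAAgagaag

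*Cxcl12*, chr6:117168285-117168534, plus strand: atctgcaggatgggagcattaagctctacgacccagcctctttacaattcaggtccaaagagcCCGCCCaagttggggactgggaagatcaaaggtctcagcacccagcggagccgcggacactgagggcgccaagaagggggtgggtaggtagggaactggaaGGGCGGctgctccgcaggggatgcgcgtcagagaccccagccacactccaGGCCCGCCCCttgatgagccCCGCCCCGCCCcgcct

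The *Ccl20* window held 3 overlapping matches to the NF-kB type motif, which begin 82, 81 and 80 bases before the start, and a TATAA 28 bases before it. The *Ccl3* window held TATAA 11 bases before the start and its complement at 162. In the *Cxcl12* window there were 5 matches to GGGCGG, of which 1 overlaps a match to the NF-kB type motif, and in that of *Cxcl14* there was none to any of the 4 motifs. The *Ccl20* and *Ccl3* windows each contained 2 CG pairs, against 14 for *Cxcl12* and 16 for *Cxcl14*, and the median over all windows was 6. Of the 32841 windows of this length in the RefSeq table, 45.8% held the NF-kB type motif, 6.75% TGANTCA, 22.8% TATAA and 32.7% GGGCGG, so a match to the first is common and describes the letters only.

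The CpG ODN library had 72173148 UMIs in 6219 barcodes and the LPS library 38656738 in 2016. With at least 800 detected genes, 4888 and 1277 cells remained, with medians of 11077.5 and 22680 UMIs, so LPS cells were sampled more deeply, and shares of cells with a UMI are given also after thinning cells to 1500 UMIs, which left out 13 shallower CpG ODN cells and 0 LPS cells. The libraries shared 5 barcodes. The kept cells formed 27 clusters that were named, as "X-like" classes, from lineage markers without the chemokines or their receptors. Because they were rebuilt here, their cells may differ from those the study gave such names. Epithelial clusters without a clear layer are called by their leading gene, and clusters led by *Ighg2b* (239 and 4 cells) stayed unnamed. Free RNA was gauged in 474 and 604 barcodes that held mostly hemoglobin RNA: *Krt14*, the main basal keratin, had 152 and 223 UMIs there, and no chemokine of the 10 had more than 2.

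The 10 genes divided among the compartments of the tissue as follows. *Ccl20* and *Cxcl14* were epithelial: 99.2% of the *Ccl20* UMIs of the CpG ODN library and 98.1% of those of the LPS library lay in keratinocyte-like and other epithelial cells outside the glands, and for *Cxcl14* the shares were 98.0% and 94.9%. *Cxcl12* was stromal, with 95.1% and 99.3% of its UMIs in fibroblast-like, endothelial-like, mural-like and Schwann-like cells. *Ccl3* (100% and 95.4%), *Ccl4* (97.8% and 96.3%) and *Ccl5* (92.4% and 98.7%) were immune. *Cxcl16* and *Ccl27a* had most UMIs in the epithelium outside the glands, 84.1% and 83.3% for the first and 82.6% and 67.7% for the second. *Ccl2* and *Ccl7* were the genes with several sources, and their division differed between the libraries. Of the *Ccl2* UMIs, 40.9% were epithelial, 32.6% stromal and 26.5% immune after CpG ODN, against 39.6%, 54.0% and 6.21% after LPS. Without 1 fibroblast-like LPS cell of 124 UMIs, described below, the LPS shares were 53.9%, 37.3% and 8.45%. For *Ccl7* the immune share was 58.5% (exact Clopper-Pearson 95% interval 53.6 to 63.3%) after CpG ODN and 24.4% (17 to 33.1%) after LPS, where all 29 immune UMIs were in 1 myeloid-like cell. These shares weigh each source by its number of cells, and immune cells, with the unnamed *Ighg2b*-led clusters counted among them, were 13% of the CpG ODN cells and 8.77% of the LPS cells. T-like, B-like and myeloid-like cells alone were 8.12% and 8.46%. All intervals given here are at 95% and cover counting error only.

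**Figure D1:**
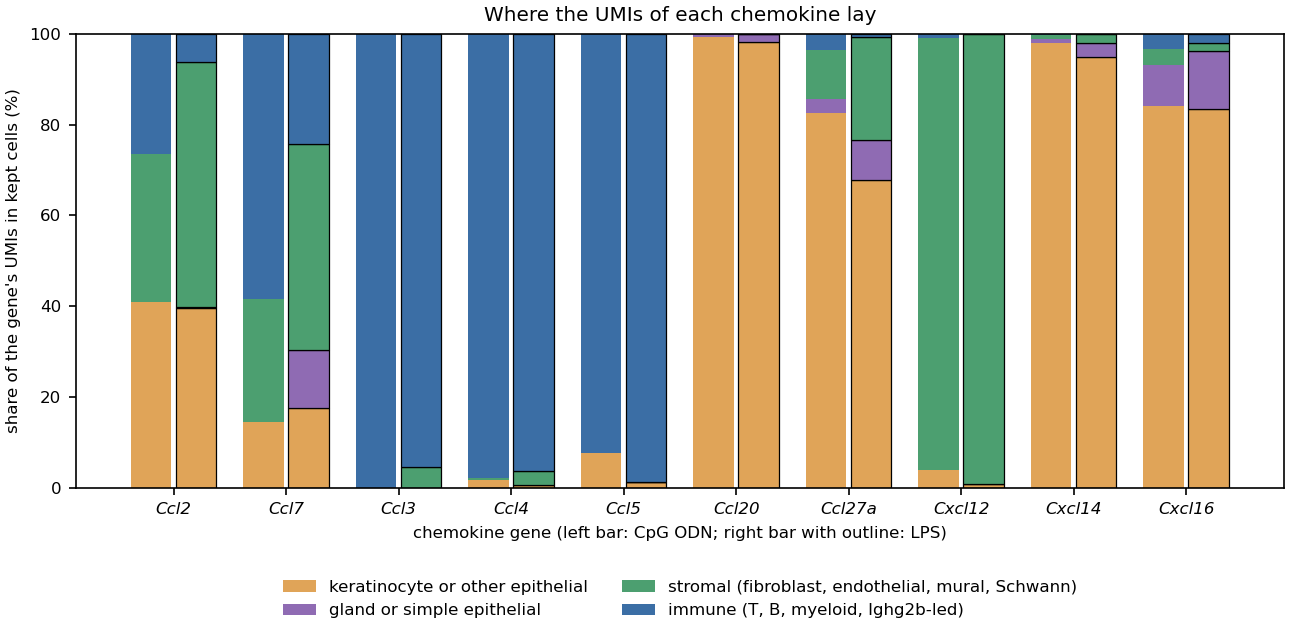
Share of the UMIs of each of the 10 chemokines (percent, vertical axis) in 4 compartments, with the CpG ODN library as the left bar and the LPS library as the outlined right bar of each gene. *Ccl20* and *Cxcl14* are almost wholly epithelial, *Cxcl12* stromal and *Ccl3*, *Ccl4* and *Ccl5* immune, while the immune share of *Ccl7* is 58.5% in the left bar and 24.4% in the right bar.

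Per class, levels are given as CPM, for which the summed UMIs of a gene were divided by all UMIs of the class and brought to a total of 1000000. Because UMIs count the 3′ ends of transcripts, gene length does not enter. The highest levels of all were those of *Ccl4* in myeloid-like cells, 1861 CPM after CpG ODN and 3924 CPM after LPS, and the lowest leading levels were those of *Ccl27a*. In the classes with at least 10 cells in each library, the highest mean level fell to myeloid-like cells for *Ccl2*, *Ccl7*, *Ccl3*, *Ccl4* and *Cxcl16*, to T-like cells for *Ccl5*, to upper keratinocyte-like cells for *Ccl20*, to endothelial-like cells for *Cxcl12* and to basal keratinocyte-like cells for *Cxcl14*. The defining markers of these classes were present, with *Krt5* in all 1067 and all 262 basal keratinocyte-like cells. The myeloid-like class was small (33 and 13 cells), so its values rest on few cells.

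**Figure D2:**
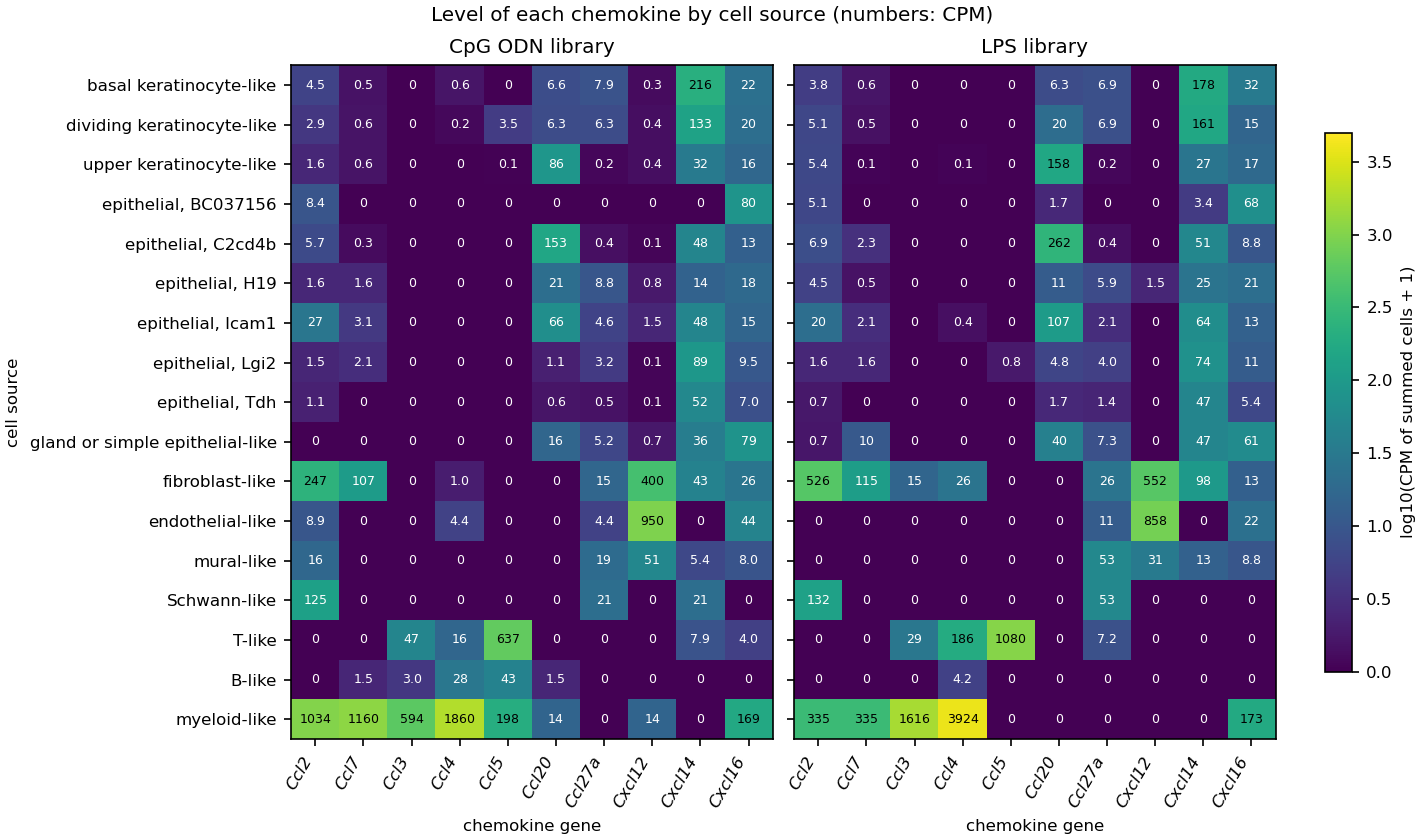
Level of the 10 chemokines in 17 cell classes or clusters, as a heat map for each library, with log10(CPM + 1) as colour and the CPM printed in each field. *Ccl3* and *Ccl4* stand out in the myeloid row, at 594 and 1861 CPM after CpG ODN and 1616 and 3924 CPM after LPS, *Cxcl12* in the endothelial and fibroblast rows, and *Cxcl14* in the basal row.

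*Ccl2* and *Ccl7* encode the main ligands of Ccr2, the receptor by which monocytes leave the blood. After CpG ODN, 22 of 33 myeloid-like cells held *Ccl2*, with a lowest, median and highest count of 0, 5 and 34 UMIs. After LPS, 3 of 13 held it, and the values were 0, 0 and 13 UMIs. More CpG ODN cells were positive, but the ranges overlap up to 13 UMIs, and the positive cells had medians of 7.5 UMIs after CpG ODN and 10 after LPS. Thinned to equal depth, 54.7% and 17.7% of the myeloid-like cells had a *Ccl2* UMI, while B-like cells, at median depths of 2149.5 and 3157 UMIs, had none in 284 and in 69 cells. The summed level was 1034 CPM (900 to 1182) from 214 UMIs after CpG ODN and 335 CPM (224 to 481) from 29 UMIs after LPS, a CpG ODN/LPS ratio of 3.09 (2.09 to 4.73). The ratio was 5.18 for the mean of per-cell CPM and 12.1 when cells were assigned by the signature genes of the study. That assignment takes *Lyz2* for myeloid cells, and gland-like cells held far more *Lyz2* after LPS, as given below. Whether gland-like cells entered that class was not tested.

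*Ccl7* followed *Ccl2* in these cells. It was found in 16 of 33 myeloid-like cells after CpG ODN, with 0, 0 and 32 UMIs as the lowest, median and highest, and in 1 of 13 after LPS, a cell that held all 29 UMIs. Every one of the 16 *Ccl7* cells after CpG ODN and the 1 after LPS also held *Ccl2*. The level was 1160 CPM after CpG ODN and 335 CPM after LPS, with a ratio of 3.47 (2.35 to 5.29), which the same alternatives moved to 7.93 and 16.1. Since the LPS value is that of 1 cell, the ratio has no value without it.

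Fibroblast-like cells, the collagen-making cells of the lamina propria, were the other strong source of *Ccl2*. After CpG ODN, 35 of 236 of them held it, with a median of 4 UMIs in the cells that had any and 55 and 40 in the highest pair of cells. After LPS, 6 of 52 held it, and the highest cells had 124 and 86 UMIs, which is 50.2% of the class in the first of them. Most fibroblast-like cells of either library had 0. The summed level was 247 CPM (255 UMIs) and 526 CPM (247 UMIs), a ratio of 0.469 (0.392 to 0.560). That ratio turns on the highest LPS cell, which also held 288 *Krt14* and 33 *Col1a1* UMIs and was among the cells with the highest doublet scores. Without the highest cell of each library the ratio was 0.697 (0.554 to 0.880), and without cells of 20 or more *Krt14* UMIs, an alternative chosen after the data were seen, 0.911 (0.732 to 1.14). *Acta2*, a marker of the mural-like class, also differed in fibroblast-like cells. It was at 15.5 CPM (11 of 236 cells) after CpG ODN and 526 CPM (13 of 52 cells) after LPS. Its bearing on the ratio was not tested.

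*Ccl7* in fibroblast-like cells was at 107 CPM (37 of 236 cells) after CpG ODN and 115 CPM (7 of 52 cells) after LPS, a ratio of 0.933 (0.668 to 1.32). Of the fibroblast-like cells with *Ccl2*, 18 of 35 in the CpG ODN library and 3 of 6 in the LPS library also held *Ccl7*. Without the highest cell of each library that ratio was 1.28 (0.862 to 1.96). The *Ccl7* level was higher in myeloid-like than in fibroblast-like cells in both libraries, but after LPS this rests on the 1 positive myeloid-like cell, without which that class is at 0. For *Ccl2* the order differed, with myeloid-like cells highest after CpG ODN and fibroblast-like cells highest after LPS, where their intervals (463 to 596 CPM for fibroblast-like and 224 to 481 CPM for myeloid-like cells) overlap. That order rests on the highest LPS fibroblast-like cell, without which the class was at 279 CPM (123 UMIs), below the 335 CPM of the myeloid-like cells.

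In the epithelium *Ccl2* was low per cell, although these cells are many and held the 40.9% and 39.6% of its UMIs given above. A cluster led by *Icam1*, the adhesion molecule that leukocytes bind, had the highest epithelial level, 27.2 CPM (51 of 407 cells) after CpG ODN and 20.4 CPM (14 of 76 cells) after LPS, with a ratio of 1.33 (0.967 to 1.86). Upper keratinocyte-like cells had 1.56 CPM (28 UMIs in 8 of 544 cells) and 5.43 CPM (70 UMIs in 9 of 213 cells), a ratio of 0.287 (0.178 to 0.450), in which the highest LPS cell held 22 UMIs. Basal keratinocyte-like cells were at 4.47 and 3.76 CPM. In all, the 10 cells with the most *Ccl2* held 32.4% of its UMIs in the CpG ODN library and 71.1% in the LPS library.

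*Ccl3* and *Ccl4*, inflammatory chemokines made by activated macrophages and lymphocytes, were carried by few cells. *Ccl3* was found in 17 of 33 myeloid-like cells after CpG ODN, with 0, 1 and 38 UMIs as the lowest, median and highest, and in 6 of 13 after LPS, with 0, 0 and 115. *Ccl4* was found in 15 of 33 (0, 0 and 134 UMIs) and in 5 of 13 (0, 0 and 336 UMIs). In the LPS library a single cell of 9592 UMIs held both extremes, 82.1% of the *Ccl3* and 98.8% of the *Ccl4* of the class, and *Ccl4* made up 3.50% of all its RNA.

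The summed level of *Ccl3* was 594 CPM after CpG ODN and 1616 CPM after LPS, a ratio of 0.368 (0.286 to 0.472). The ratio of *Ccl4* was 0.474 (0.409 to 0.550). Both are set by that cell: without the highest cell of each library the ratio was 1.33 (0.841 to 2.16) for *Ccl3* and 24.5 (9.44 to 90.6) for *Ccl4*. Assignment by the signature genes, which does not set out to drop that cell, gave 1.69 and 2.06. The share of myeloid-like cells with a *Ccl3* UMI, thinned, was 35.8% and 34.5%, and that with a *Ccl4* UMI was 39.3% and 18.6%. No *Ccl3* UMI was seen in 1067 and 262 basal keratinocyte-like cells, and a count of 0 there allows 0.298 and 0.626 CPM at 3 UMIs. *Ccl3* and *Ccl4* were found together in 12 cells after CpG ODN and in 4 after LPS.

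*Ccl4* outside the myeloid-like class also lay in few cells. B-like cells had 19 UMIs, 14 of them in 1 of 3 positive cells, after CpG ODN and 1 UMI after LPS, a ratio of 6.64 (1.06 to 276), which turned to 0.0301 when each library was clustered on its own. T-like cells had 4 UMIs in 1 cell after CpG ODN and 26 UMIs after LPS, of which 24 were in 1 cell, a ratio of 0.0851 (0.0216 to 0.245). In fibroblast-like cells 1 LPS cell held 12 UMIs, against 1 UMI in the CpG ODN library, a ratio of 0.0378 (0.000885 to 0.256), and 7 UMIs of *Ccl3* in 1 LPS cell. None of these values describes more than a handful of cells.

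*Ccl5*, which draws effector T cells and monocytes and is kept as a ready product of memory and cytotoxic T cells, was highest in T-like cells. It was in 8 of 80 T-like cells after CpG ODN, with a highest count of 54 and a median of 16.5 in the positive cells, and in 4 of 26 after LPS, with a highest count of 140 and a next of 5. Of these cells, 7 of 8 and 4 of 4 held *Nkg7*, a gene of cytotoxic granules, and 3 and 3 held the chemokine *Xcl1*. The level was 637 CPM and 1080 CPM, a ratio of 0.590 (0.470 to 0.742). The top LPS cell carried 92.7% of the LPS UMIs, and the ratio was 5.29 (2.84 to 10.9) without the top cell of each library and 1.08 (0.829 to 1.39) when at least 1200 detected genes were asked of a cell. In the CpG ODN library *Ccl5* was also in 3 myeloid-like cells (41 UMIs), in 1 B-like cell (29 UMIs) and in 1 dividing keratinocyte-like cell (18 UMIs), against 0 UMIs in these classes after LPS. With 3 UMIs taken as the most a count of 0 allows for the class, the ratio was 5.72 in myeloid-like and 3.38 in B-like cells. With counting error in both libraries, the exact intervals began at 4.45 and 2.58.

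The myeloid-like cells were not alike in the 2 libraries. Divided again, they gave a macrophage-like sub-cluster led by *Hmox1*, *Pf4* and *Selenop* (13 CpG ODN cells and 2 LPS cells), a sub-cluster with macrophage markers led by *Il1a* (6 and 1), a neutrophil-like one with *S100a8* (1 and 5), an unnamed one led by *Plac8* and *Ly6c2* (2 and 3), and an unnamed one led by keratins (11 and 2) with 79 UMIs of *Cd207*, the langerin of Langerhans cells, and 307 of *Krt14*. The largest sub-cluster thus differed, the macrophage-like one in the CpG ODN library and the neutrophil-like one in the LPS library, and none held most of the class. *Ccl2* and *Ccl7* were highest in the first, at 2179 and 2905 CPM after CpG ODN, where 12 and 10 of its 13 cells held them. In its 2 LPS cells, 10 and 29 UMIs gave 525 and 1522 CPM. After LPS *Ccl2* was higher in the 1 cell of the *Il1a*-led sub-cluster, at 1355 CPM from 13 UMIs, which held 0 of *Ccl7*.

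*Ccl3* and *Ccl4* were highest in the *Il1a*-led sub-cluster, where both are among the 10 leading genes, at 1723 and 6196 CPM in 6 cells after CpG ODN and 11989 and 35029 CPM in the 1 cell after LPS. The neutrophil-like cells had 0 UMIs of *Ccl2* and *Ccl7* and, after LPS, 6 of *Ccl3* and 2 of *Ccl4*. The *Plac8*-led cells held *Ccl3* in 2 of 2 and 3 of 3 cells. Counted over the 2 sub-clusters with macrophage markers only, the ratio was 2.34 (1.59 to 3.58) for *Ccl7* and 0.299 (0.256 to 0.350) for *Ccl4*. Whether the ratios of the class come from its makeup or from the level per cell cannot be told apart with these cell numbers.

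**Figure D3:**
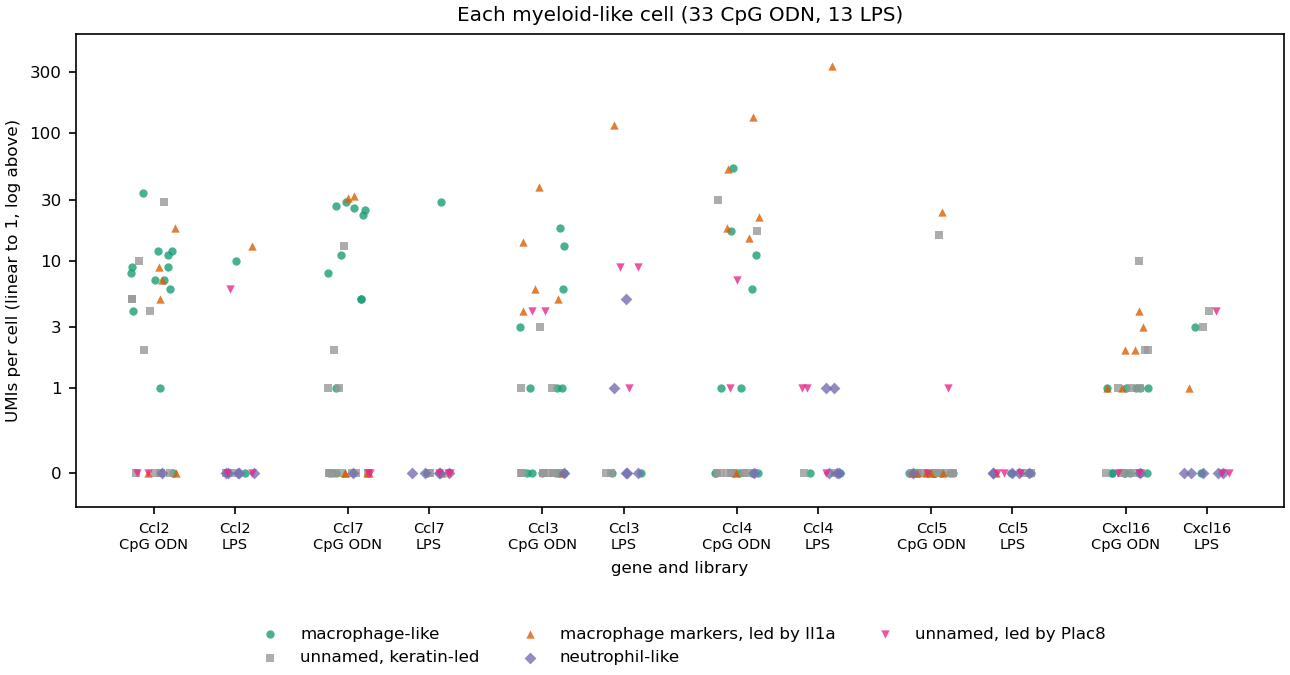
UMIs of 6 chemokines in each myeloid-like cell (33 after CpG ODN, 13 after LPS), with the sub-cluster as marker shape and the vertical axis linear up to 1 and logarithmic above. *Ccl2* and *Ccl7* are spread over many CpG ODN cells, with highest counts of 34 and 32, while 82.1% of the *Ccl3* and 98.8% of the *Ccl4* of the LPS class lie in 1 cell with 115 and 336 UMIs.

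*Ccl20*, the ligand of Ccr6 and the attractant of B cells, Th17 cells and immature dendritic cells, came from suprabasal epithelium. Upper keratinocyte-like cells, the layers with *Krt10* or *Krt4*, had 1547 UMIs in 148 of 544 cells after CpG ODN and 2036 UMIs in 86 of 213 cells after LPS. The median cell had 0 in both, the positive cells had medians of 7 and 15 UMIs, and the highest had 73 and 133. At least 1 UMI was seen in 27.2% and 40.4% of these cells at median depths of 32402.5 and 57049 UMIs and, thinned to equal depth, in 8.09% and 13.3%, against 1 of 284 and 0 of 69 B-like cells.

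The *Ccl20* level of upper keratinocyte-like cells was 86.0 CPM after CpG ODN and 158 CPM after LPS, a ratio of 0.545 (0.510 to 0.582). The same side was found in 3 of the 4 clusters of this class. The *Krt10*-led cluster had 133 and 237 CPM, the *Krt4*-led one 77.8 and 197 CPM and the *Lor*-led one 82.1 and 129 CPM, whereas the *Cryba2*-led cluster was low in both, at 12.3 CPM after CpG ODN and 4.40 CPM after LPS. Outside the class, a cluster led by *C2cd4b* had the highest level of all, 153 and 262 CPM (ratio 0.585, 0.531 to 0.644), in 121 of 259 and 34 of 54 cells. Without the highest cell of each library its ratio was 0.660 (0.595 to 0.732). *Ccl20* is itself among the leading genes of that cluster. The *Icam1*-led cluster had 65.9 and 107 CPM (ratio 0.616, 0.527 to 0.721). There 70 of 257 LPS UMIs were in 1 cell, and the ratio without the highest cell of each library was 0.772 (0.648 to 0.923). Dividing keratinocyte-like cells had 6.29 and 20.3 CPM (ratio 0.310, or 0.493 without the highest cell of each library, where 20 of 44 LPS UMIs were in 1 cell). Gland-like cells had 15.6 and 39.6 CPM (0.395, 0.228 to 0.660), or 0.593 (0.258 to 1.29) without the highest cell of each library, which held 10 of 21 and 39 of 60 UMIs. Basal keratinocyte-like cells were at 6.55 and 6.26 CPM (1.05, 0.670 to 1.67), and the *H19*-led cluster was at 20.7 and 10.9 CPM (1.91, 1.04 to 3.53), where 18 of 26 and 9 of 22 UMIs were in 1 cell of each library and the ratio without them was 0.995 (0.357 to 2.59). Marker levels of the gland-like class also differed between the libraries. *Lyz2* was at 2.98 CPM (4 UMIs) after CpG ODN and 1214 CPM (1841 UMIs) after LPS, and *Krt5* at 2416 and 589 CPM. The part of this makeup in the gland-like ratios was not tested. Stromal cells had 0 *Ccl20* UMIs in both libraries.

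Clusters with like levels of *Krt76*, a keratin of the palate, differed widely in *Ccl20*. The *Tdh*-led cluster had 0.639 and 1.65 CPM and the *C2cd4b*-led one 153 and 262 CPM, and *Krt76* was at 20724 and 21556 CPM in the first and 23663 and 20886 CPM in the second. *Krt10* differed between them, at 1650 and 2171 CPM and at 3774 and 4218 CPM. *Atf3*, an early response and stress gene, was at 35.3 and 23.1 CPM in the *Tdh*-led cluster and 786 and 746 CPM in the *C2cd4b*-led one. Of 10 early response genes that tissue dissociation is known to raise, chosen after the data were seen, 10 had a higher median level in the 5 clusters with at least 60 CPM of *Ccl20* than in the other 10, in both libraries. The same count was not made over all genes. Early response genes were also not held out of the clustering. *Socs3* and *Atf3* are among the leading genes of the *Icam1*-led cluster, and *Socs3* and *Zfp36* among those of the *C2cd4b*-led one. After CpG ODN the summed level of the 10 genes ran from 7682 to 10979 CPM in the 5 clusters and from 1223 to 8813 CPM in the other 10. After LPS it ran from 7887 to 10536 and from 985 to 9473 CPM. The ranges overlap. The *Fst*-led basal cluster, for example, had 8813 and 9473 CPM of these genes with 14.7 and 16.2 CPM of *Ccl20*, and after LPS the *H19*-led cluster had 8353 CPM of them with 10.9 CPM of *Ccl20*. Between the libraries, the 5 clusters all had more *Ccl20* after LPS. The summed early response level was also higher after LPS in the *Icam1*-led (10043 and 10356 CPM), *C2cd4b*-led (10005 and 10536 CPM) and *Krt4*-led (7682 and 8408 CPM) clusters, and lower after LPS in the *Krt10*-led (10979 and 9720 CPM) and *Lor*-led (9519 and 7887 CPM) ones. Over the 15 epithelial clusters, which share a library and its depth, Spearman's rho of *Ccl20* with *Atf3* was 0.84 and 0.63. The part of the early response in the *Ccl20* level was not tested.

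**Figure D4:**
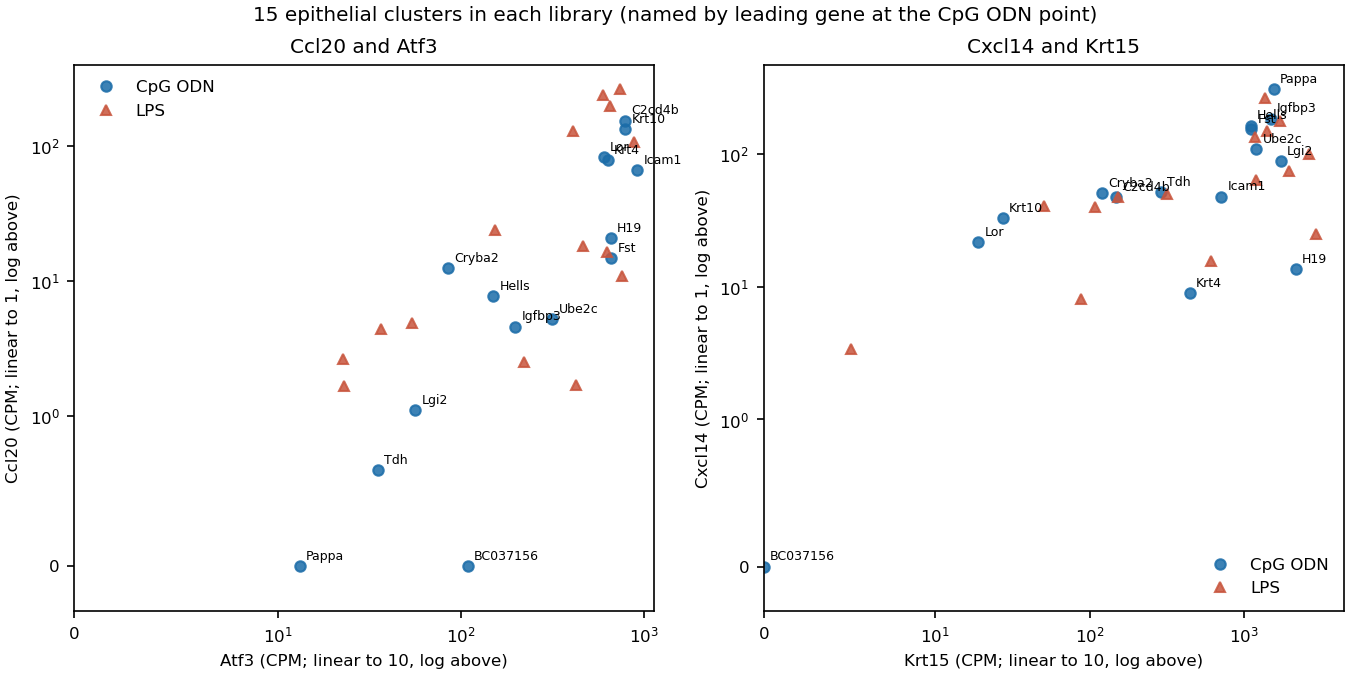
*Ccl20* against *Atf3* and *Cxcl14* against *Krt15* (CPM) in 15 epithelial clusters of each library. High *Ccl20* is found in clusters with 409 to 923 CPM of *Atf3*, but clusters such as the *Fst*-led one have 664 CPM of *Atf3* and 14.7 CPM of *Ccl20* after CpG ODN.

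*Cxcl14*, a chemokine made by unperturbed skin and mucosal epithelium, had the most UMIs of the 10 after CpG ODN, 5346 against 2394 after LPS. It was found in 41.4% and 44.9% of all cells and in most cells of the basal layer. Of the basal keratinocyte-like cells, 708 of 1067 in the CpG ODN library and 185 of 262 in the LPS library held it, with 0, 1 and 100 UMIs as the lowest, median and highest in the first and 0, 2 and 23 in the second. The thinned shares were 24.0% and 20.9%, and 0 of 284 and 0 of 69 B-like cells had a UMI. The level was 216 CPM (2177 UMIs) and 178 CPM (854 UMIs), a ratio of 1.21 (1.12 to 1.31).

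Within the basal class the *Pappa*-led cluster was highest, at 310 and 264 CPM, followed by the *Igfbp3*-led cluster after CpG ODN (186 CPM, against 99.8 CPM after LPS) and by the *Fst*-led one (155 and 150 CPM). Dividing keratinocyte-like cells had 133 and 161 CPM (0.823, 0.722 to 0.939) and upper keratinocyte-like cells 32.3 and 26.7 CPM (1.21, 1.06 to 1.39), so the level was lower in the upper layers, and *Krt4*-led cells had only 9.0 and 15.7 CPM. Fibroblast-like cells had 42.5 and 98.0 CPM, a ratio of 0.434 (0.280 to 0.671), but 42 of the 46 LPS UMIs were in 1 cell, and without the highest cell of each library the ratio was 4.40 (1.59 to 16.9). Among gland-like cells, 25 of 48 UMIs after CpG ODN and 48 of 72 after LPS were likewise in 1 cell.

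*Cxcl12*, the ligand of Cxcr4 that retains lymphocytes and progenitors near stroma, was made by vessels and fibroblasts. In endothelial-like cells it was found in 23 of 49 cells after CpG ODN, with 0, 0 and 50 UMIs as the lowest, median and highest, and in 11 of 24 after LPS, with 0, 0 and 59. The level was 950 and 858 CPM, a ratio of 1.11 (0.896 to 1.37), or 1.78 for the mean of per-cell CPM. Fibroblast-like cells held it in 119 of 236 and 38 of 52 cells, with medians of 1 and 2 UMIs and highest counts of 21 and 32, which gave 400 and 552 CPM and a ratio of 0.725 (0.620 to 0.851). Thinned, 34.2% and 41.7% of fibroblast-like cells had a UMI, against 3 of 544 and 0 of 213 upper keratinocyte-like cells, which were sampled far more deeply. Endothelial-like cells were above fibroblast-like cells in each library, and mural-like cells, with 19 and 7 UMIs, were lower.

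*Cxcl16*, a membrane-bound chemokine that is also a scavenger receptor and binds Cxcr6 on T cells, was low and widespread. Myeloid-like cells had the highest level, 169 CPM (35 UMIs) and 173 CPM (15 UMIs), with a ratio of 0.977 (0.520 to 1.93). Gland-like cells had 79.0 and 60.7 CPM (1.30, 0.975 to 1.74), and the small *BC037156*-led cluster, which also holds *Odam*, a gene of the junctional epithelium, had 80.1 and 67.6 CPM. Basal keratinocyte-like cells were at 22.3 and 31.7 CPM (0.704, 0.570 to 0.871). The highest single cell of the 2 libraries had 10 UMIs.

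*Ccl27a*, which in skin is made by keratinocytes and binds Ccr10 on skin-homing T cells, was the scarcest of the epithelial genes. Basal keratinocyte-like cells had 80 UMIs in 72 cells and 33 UMIs in 29 cells, at most 2 and 3 in a cell, which is 7.94 and 6.89 CPM and a ratio of 1.15 (0.760 to 1.79). Its highest class mean was that of Schwann-like cells, at 20.9 and 52.7 CPM, which rests on 1 UMI and 2 UMIs, and mural-like cells with 7 and 12 UMIs had a ratio of 0.354 (0.118 to 0.975). Over the 15 epithelial clusters its Spearman's rho with *Krt15*, a basal keratin, was 0.83 after CpG ODN and 0.86 after LPS, and with *Krt10*, a keratin of the upper layers, it was −0.77 and −0.48, as a description of clusters that share a library.

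Read against all genes with at least 20 UMIs in a class, the ratios of the chemokines were as follows, with a ratio of at least 2 counted as higher and of at most 0.5 as lower after CpG ODN. In myeloid-like cells 3 of 6 chemokines tested were higher (*Ccl2*, *Ccl7* and *Ccl5*), where 13.5% of 2163 genes were, and 2 were lower (*Ccl3* and *Ccl4*), where 11.5% were. Neither of these 2 was lower without the highest cell of each library (1.33 and 24.5). The median log2 ratio was 0.80 over the 6 and 0.02 over all genes. In fibroblast-like cells 1 of 6 was higher (*Cxcl16*, 27 and 6 UMIs) against 5.26% of genes, and 2 were lower (*Ccl2* and *Cxcl14*) against 3.85%, with medians of −0.59 and 0.01. Without the highest cell of each library neither of these 2 was lower (0.697 and 4.40). In T-like cells 0 of 2 were higher (5.67% of genes) and 1 was lower (*Ccl4*, 3.99%). That call rests on 1 CpG ODN cell of 4 UMIs and 1 LPS cell with 24 of 26 UMIs. *Ccl5* in T-like cells was higher, at 5.29 (2.84 to 10.9), without the highest cell of each library. In B-like cells 2 of 2 were higher (7.25%) and 0 lower (2.94%). These were *Ccl5*, with 29 UMIs in 1 cell, and *Ccl4*, with 19 UMIs in 3 cells against 1 UMI, whose ratio was 0.0301 when each library was clustered on its own.

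In the epithelium fewer ratios passed a bound. In basal keratinocyte-like cells 0 of 5 passed either bound, against 1.18% and 1.14% of genes. In upper keratinocyte-like cells 0 of 4 were higher (1.27%) and 1 was lower (*Ccl2*, 3.26%), and *Ccl20* at 0.545 lay just outside the bound. In dividing keratinocyte-like cells 0 of 5 were higher (2.03%) and 1 was lower (*Ccl20*, 1.73%; 0.493 without the highest cells), and in gland-like cells 0 of 3 were higher (5.87%) and 1 was lower (*Ccl20*, 6.12%), though not without the highest cells (0.593). The *Icam1*-led cluster had 1 of 6 higher (*Ccl27a*, 31 and 5 UMIs, 2.12%) and 0 lower (1.64%), and the *Lgi2*-led cluster 0 of 5 higher (2.19%) and 1 lower (*Ccl20*, 9 and 12 UMIs, 1.21%), which rests on 1 LPS cell of 10 UMIs and was 0.907 without the highest cell of each library. *Cxcl12*, the only one with 20 UMIs in endothelial-like cells, passed neither bound there (6.1% of genes higher and 3.7% lower), nor did it in mural-like cells (4.67% and 4.24%). In the *C2cd4b*-led cluster 0 of 4 chemokines passed a bound (2.21% and 1.36%), in the *H19*-led one 0 of 4 (1.5% and 2.67%), in the *Tdh*-led one 0 of 2 (1.01% and 1.32%) and in the *BC037156*-led one 0 of 1 (5.36% and 6.94%). No chemokine reached 20 UMIs in Schwann-like cells (9.19% and 5.21% of genes) or in the *Ighg2b*-led clusters, where the LPS library has 4 cells (29.7% and 13.3%).

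**Figure D5:**
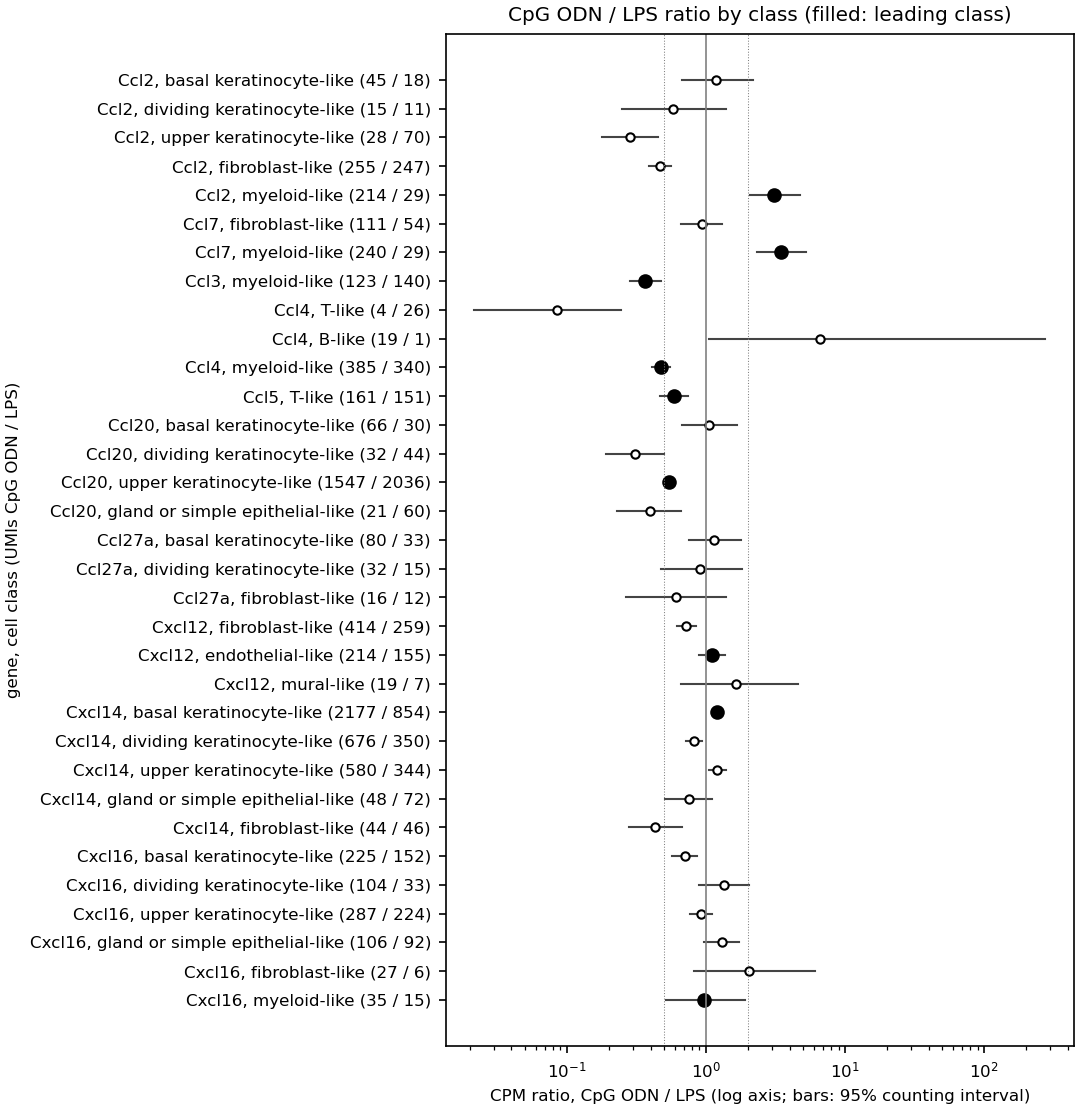
CpG ODN/LPS ratio of the CPM of each chemokine by cell class on a logarithmic axis, with exact 95% intervals that cover counting error only, filled points for the leading class and dotted lines at 0.5 and 2. In myeloid-like cells *Ccl2* (3.09) and *Ccl7* (3.47) lie to the right of 1 and *Ccl3* (0.368) and *Ccl4* (0.474) to the left, and *Ccl20* lies left of 1 in upper keratinocyte-like cells (0.545).

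Of 23 receptor genes listed, 17 had at least 20 UMIs. *Ccr2*, the receptor of *Ccl2* and *Ccl7*, was in myeloid-like cells at 193 CPM (40 UMIs, 10 of 33 cells) after CpG ODN and 162 CPM (14 UMIs, 3 of 13 cells) after LPS, and in T-like cells at 43.5 and 150 CPM. *Ccr1*, a receptor of *Ccl3* and *Ccl5*, had 6 and 27 UMIs in myeloid-like cells (29.0 and 312 CPM). *Ccr1* was among the 10 leading genes of the neutrophil-like sub-cluster, which held 1 CpG ODN cell and 5 LPS cells.

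*Ccr6*, the receptor of *Ccl20*, was in 49 of 284 and 10 of 69 B-like cells, at 88.5 CPM (67.6 to 114) and 50.7 CPM (26.2 to 88.5). *Cxcr4* was at 267 and 296 CPM in B-like cells and at 48.3 and 312 CPM in myeloid-like cells, so that B-like cells were highest after CpG ODN only and the intervals of both classes overlap after LPS (230 to 374 and 205 to 453 CPM). The atypical receptor *Ackr3*, which takes up *Cxcl12*, was at 64.8 CPM in fibroblast-like cells after CpG ODN and 139 CPM after LPS, and at 26.1 and 34.7 CPM in basal keratinocyte-like cells. With 536 and 447 UMIs in all, it was the receptor gene of the list with the most UMIs in each library, ahead of *Cxcr4* (502 and 133). *Cxcr6* was in 6 of 80 T-like cells (51.4 CPM) and 4 of 26 (157 CPM). *Ccr10*, the receptor of *Ccl27a*, had 30 and 16 UMIs in all, spread over many classes, with 8 in upper keratinocyte-like cells after CpG ODN as the most in any class. Of the 14 receptors with 20 UMIs in the class where they were highest, 4 had a ratio of at most 0.5 (*Ccr1*, *Cxcr6*, *Ackr3* and *Ccrl2*), where 11.5% of all genes did in myeloid-like, 3.99% in T-like and 3.85% in fibroblast-like cells.

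Among 23 other chemokine ligands, 22 were in the files and 18 had 20 UMIs in their highest class. Of these, 5 had a ratio of at least 2 (*Ccl12*, *Ccl22*, *Cxcl9*, *Cxcl13* and *Ppbp*) and 2 of at most 0.5 (*Ccl17* and *Ccl28*). After CpG ODN, *Cxcl9* lay in 1 endothelial-like, *Ccl22* in 2 myeloid-like and *Cxcl13* in 4 fibroblast-like cells. *Ppbp* had 462 UMIs in 2 gland-like cells after CpG ODN and 59 in 1 after LPS. Over all cells it had 648 and 1767 UMIs, the other way. It is a leading gene of the *BC037156*-led cluster, but highest classes were sought among named classes only. A ratio of at least 2 was found for 13.5% of all genes in myeloid-like cells, where *Ccl12* and *Ccl22* were highest. The share was 6.1% in endothelial-like (*Cxcl9*), 5.26% in fibroblast-like (*Cxcl13*) and 5.87% in gland-like cells (*Ppbp*). A ratio of at most 0.5 was found for 11.5% in myeloid-like (*Ccl17*) and 6.12% in gland-like cells (*Ccl28*). In myeloid-like cells, *Ccl12*, a further Ccr2 ligand, gave 69 UMIs, in 10 cells, in the CpG ODN library and 0 in the LPS library. *Ccl8* was at 1000 and 577 CPM there and *Pf4*, a platelet and macrophage chemokine, at 1981 and 1258 CPM. *Ccl17* had 30 UMIs in 1 myeloid-like LPS cell, against 1 UMI in the myeloid-like CpG ODN cells.

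The genes whose level over 11 classes in both libraries (22 points, which share the libraries and their depth) was most like that of a chemokine were found by Pearson's r of log2(CPM + 10) among 11089 genes. For *Ccl7* it was *Ccl8* (r = 0.985), then *Tmem106a* (0.968) and *Ifi207* (0.943). For *Ccl3* and *Ccl4* they were myeloid genes, *Fcer1g* (0.952), *Ms4a6c* (0.942) and *Il1b* (0.937) for the first and *Bcl2a1d* (0.960), *Tyrobp* (0.957) and *Fcer1g* (0.949) for the second. *Ccl5* was most like *Il7r* (0.954), *Ms4a4b* (0.901) and *Ptpn22* (0.866), and *Cxcl12* like *Ntn1* (0.975), *Cd34* (0.941) and *Thbd* (0.935).

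Among the epithelial genes, *Ccl20* was most like *4833423E24Rik* (0.963) and *1700001O22Rik* (0.953), and *Cxcl14* like *Tenm2* (0.913), *Wnt10a* (0.909) and *Slc1a4* (0.902). *Cxcl16* was most like *Smpdl3b* (0.889), *Gda* (0.875) and *Stx3* (0.872), and *Ccl2*, which has several sources, like *Antxr2* (0.880), *Ap2a2* (0.857) and *Trf* (0.853). Within the 10, the neighbouring genes *Ccl3* and *Ccl4* had r = 0.964 and *Ccl2* and *Ccl7* r = 0.843 over the same points.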

How the data were processed

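Palatal gingiva was measured by droplet single-cell RNA-seq in 2 libraries, each pooled from 4 mice. For each library the authors deposited a filtered matrix of raw UMI counts, made with Cell Ranger (4.0.0 in the file header) and not normalized. Seurat is also named in the submitters' notes. The genome build was not given in the sources used here, and coordinates were taken by gene identifier from GENCODE M21 (GRCm38), which lists 32235 of the identifiers. The chemokines, the gene lists and the part described were chosen with earlier results of these data known.

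Cells in which 800 or more genes were detected entered, which left out 1331 and 739 barcodes. Each cell was brought to 10000 UMIs and log-transformed, and 2000 variable genes, without the chemokines and their receptors, gave 30 principal components, a graph of 15 neighbours and Leiden clusters at resolution 1 (leidenalg 0.10.2, igraph 0.11.9, scikit-learn 1.9.0, Python 3.11.15, numpy 2.4.6, scipy 1.17.1, pandas 2.3.3, matplotlib 3.10.9). A cluster took a class name from at least 3 markers, each in at least 20% of its cells and 2-fold above the other coarse clusters (1.5-fold for keratinocyte layers). This scoring rule, the layer thresholds, the rule for unnamed clusters, the early response genes and 4 alternatives were set after the data were seen. Myeloid-like cells were divided again with 10 components and 8 neighbours.

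UMIs were summed by class and library and divided by the UMI total of that class (CPM). Intervals are exact Poisson for CPM, exact conditional binomial for ratios and exact Clopper-Pearson for shares, all at 95%, and do not cover the spread between mice or cells. Cells of 1 library are not replicates, and no test was run. A count of 0 was taken to allow 3 UMIs. The leading class of a gene is the named class with at least 10 cells in each library that had the highest mean CPM. All 10 chemokines are named, with the 3 genes most like each and the listed receptors and ligands of at least 20 UMIs, except a few that are not reported here. The ratio and thinning steps were tested on simulated data. Doublets were kept. In an alternative, the 243 and 21 cells with the highest scores of a simulated-doublet method were left out. Other alternatives changed the gene minimum, the resolution, the joint clustering, the way cells are summed or assigned, the scaling and the cell with the most UMIs.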

Additional observations from a re-analysis of the deposited data

Results flagged for a closer look

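*Ccl2* stood on opposite sides of 1 in different classes, with a CpG ODN/LPS ratio of 3.09 in myeloid-like cells and 0.287 in upper keratinocyte-like cells. *Cxcl14* did so too, at 1.21 in basal keratinocyte-like and 0.434 in fibroblast-like cells. However, 42 of the 46 LPS UMIs of the latter were in 1 cell. Without the highest cell of each library the fibroblast-like ratio was 4.40, on the same side as the basal cells. Other *Cxcl14* intervals below 1 were those of dividing keratinocyte-like cells (0.823, 0.722 to 0.939), the *Icam1*-led cluster (0.749, 0.616 to 0.913) and the *H19*-led cluster (0.54, 0.291 to 0.946). Above 1 were also upper keratinocyte-like cells (1.21, 1.06 to 1.39) and the *Lgi2*-led cluster (1.20, 1.02 to 1.42). With 1 library for each ligand these differences between classes were not tested.

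Barcodes under 800 detected genes, which entered no comparison, also held chemokine UMIs beyond the 3 that a count of 0 allows. The 1331 such barcodes of the CpG ODN library had 38 UMIs of *Ccl4* in 9 barcodes, 19 of *Ccl5* in 3, 10 of *Ccl7* in 1 and 8 of *Ccl3* in 4. They further had 13 of *Cxcl12*, 12 of *Cxcl14*, 12 of *Cxcl16*, 9 of *Ccl27a*, 6 of *Ccl2* and 4 of *Ccl20*. The 739 of the LPS library had 29 of *Ccl4* in 4 barcodes, 22 of *Ccl3* in 2, 4 of *Cxcl14* and 4 of *Cxcl16*.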

How the results depend on the processing

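The 10 leading-class ratios were recomputed as 106 values under the alternatives, of which 81 moved by less than the counting interval, 19 moved by more and 6 moved by more to the other side of 1. Here and below, a change of side was counted only where the main interval leaves out 1. *Cxcl12* at 0.842, given below, is therefore among the 19. Of 226 values for 24 other ratios, 205 moved less than the interval, 19 more and 2 to the other side. Leaving out the cell with the most UMIs changed side for *Ccl3* (1.33), *Ccl4* (24.5) and *Ccl5* (5.29) and for *Cxcl14* in fibroblast-like cells (4.40), gave 0 for *Ccl27a*, whose leading class holds 3 UMIs, and no value for *Ccl7*, where 0 LPS UMIs remained. Assigning cells from the signature genes of the study gave 12.1 for *Ccl2*, 16.1 for *Ccl7*, 1.69 for *Ccl3* and 2.06 for *Ccl4*, the last 2 on the other side of 1, and no value for *Ccl20*, *Ccl27a*, *Cxcl12* and *Cxcl14*. The part of gland-like cells with *Lyz2* in these values was not tested. At least 1200 detected genes gave 1.08 for *Ccl5*, 0.842 for *Cxcl12* (1.11 in the report, with an interval that holds 1) and 0 for *Ccl27a*. The mean of per-cell CPM gave 5.18 for *Ccl2*, 7.93 for *Ccl7*, 0.510 for *Ccl3*, 0.624 for *Ccl4*, 1.78 for *Cxcl12* and 1.12 for *Cxcl14*. Clustering each library alone gave 1.49 for *Cxcl14* and 0.0301 for *Ccl4* in B-like cells, there on the other side of 1. Resolutions of 0.5 and 2 gave 0.631 and 0.588 for *Ccl20*. Without the highest doublet scores *Ccl4* was 0.567. With alternatives chosen after the data were seen, myeloid-like cells without the keratin-led sub-cluster gave 0.534 for *Ccl3* and 0.630 for *Ccl4*, and the sub-clusters with macrophage markers alone gave 2.34 for *Ccl7* and 0.299 for *Ccl4*. The epithelial clusters without a class name were run without the highest cell only. Of their 22 ratios, 18 stayed within their interval, and *Ccl20* in the *H19*-led cluster went to the other side of 1 (0.995). Thinning to 1500 UMIs moved the difference in the share of cells with a UMI (CpG ODN minus LPS) from −13.2 to −5.21 percentage points for *Ccl20* and from −4.26 to 3.10 for *Cxcl14*, which reversed its sign. Scaling by the median ratio moved the classes by −0.05 to 0.11 on the log2 scale. Where no value above shows it, the cause of a change was not tested.

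No paired analysis was possible because there is only 1 library per ligand. The myeloid-like, T-like and Schwann-like classes hold few cells, and depth limits what can be said of any gene with fewer than 20 UMIs in a class.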
